A study of Rattus norvegicus with 2 samples.

Results

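The genes described here are 9 receptors of the nuclear receptor family. They are the estrogen receptors Esr1 and Esr2, the progesterone receptor Pgr, the glucocorticoid receptor Nr3c1, the vitamin D receptor Vdr, the estrogen-related receptor Esrra, the thyroid hormone receptor Thra, the retinoic acid receptor Rara, and Pparg, the lipid-activated receptor that drives the formation of fat cells. They were picked by symbol. A transcript model of the deposited annotation belonged to a receptor when its gene name, without the endings for predicted or mapped genes and without regard to case, equalled the receptor's symbol. By this rule 5 of the 9 receptors were found, namely Nr3c1, Vdr, Thra, Rara and Pparg, with 15 of the 43391 transcript models of the annotation. Esr1, Esr2, Pgr and Esrra were not found by name.

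RNA-seq was performed on total RNA from the femurs of female Wistar rats of the WT genotype. The labels name 1 rat with bilateral ovariectomy (OVX), which removes the source of most estrogen and progesterone, and 1 rat with a sham operation (SHAM), after which the rat keeps its ovaries, and give 16 week for both. They add the word old to the OVX sample and young to the SHAM sample. They do not say from when the weeks are counted. The study's methods state another length of feeding, and whether the weeks of the labels stand for that period or for an age was not established. The methods also give more sequenced rats in each group than the labels do. The files used here hold positions and attributes of transcript models for the whole series and no count, coverage or expression level, so the sequencing depth is unknown and OVX and SHAM were not compared.

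Nuclear receptors are transcription factors that a small lipophilic ligand switches between repression and activation of their target genes. Steroid receptors such as Nr3c1 wait for their hormone in complexes with heat shock chaperones, whereas Vdr, Thra, Rara and Pparg pair with a retinoid X receptor on DNA and exchange corepressors for coactivators when the ligand binds. In bone, estrogen restrains resorption, glucocorticoid excess reduces formation, vitamin D acts on osteoblasts and on mineral supply, and Pparg turns marrow stromal cells toward fat rather than bone.

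Each model in the annotation carries a class that relates it to a reference transcript. Class = means that all introns match, class c that the model is a fragment contained in the reference transcript, class j that at least 1 splice junction is shared while the whole chain is not, and class n that an intron is retained and not all introns match. The annotation merges 2 assemblies, and each model is recorded as present in 1 or in both. The assembly of each model was read from its number, and the assemblies are called the first and the second because the files link neither to a rat or a group.

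All 5 receptors found had models in both assemblies, but no receptor model was shared by them. Of the 15 models, 8 were of the first assembly only and 7 of the second only. Of all 43391 models, 19314 were of the first only, 19181 of the second only and 4896 (11.3%) of both. By class, 4.9% of class c models, 5.8% of class j models and 50.2% of class = models were in both. Over all 12567 named genes, 76.5% had models in both assemblies and 30.8% had at least 1 model recorded in both. The match by name itself succeeded for 25.4% of the 20978 protein-coding rat symbols of the RefSeq annotation, LOC numbers left out. These counts over 5 genes describe the receptors and were not tested.

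Class c, the contained fragments, took 10 of the 15 receptor models (66.7%), against 56.1% of the 38614 models of named genes. Pparg gave 5 of the 10, and without it the share was 5 of 10 (50%). Class j took 3 models, class = took 1 and class n took 1. Of all 43391 models, those outside named genes included, class c took 49.9%, class j 22.8%, class = 13.7% and class n 0.7%. Thra was the only 1 of the 5 receptors with a full reference chain, which 38.6% of all named genes had. Class j models occurred for Nr3c1, Vdr and Thra, and for 42.3% of all named genes. Pparg had contained fragments only, as did 27.1% of all named genes. No receptor model had a single exon. The models had 2 to 9 exons and 396 to 2226 bp of exon sequence, with a median of 722 bp. The median receptor had 2 models, as had the median named gene, and its longest model had 1846 bp, against 1000 bp over all named genes.

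**Figure D1:**
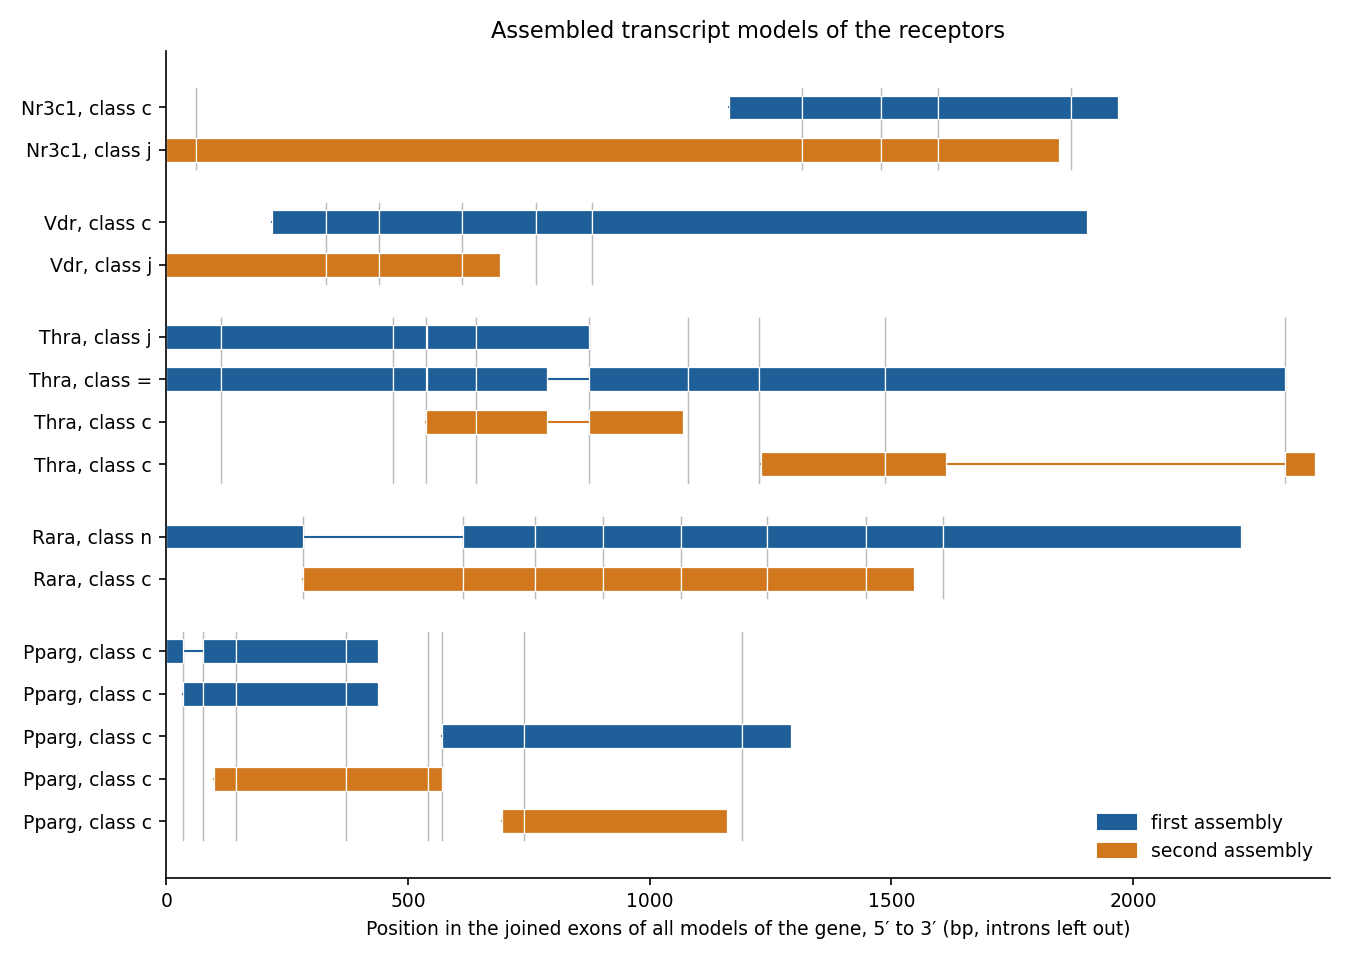
Transcript models of the 5 receptors found, drawn on the joined exon positions of each gene from 5′ to 3′ in bp, with introns left out. Boxes are exons, lines join exons of a model over exon sequence that only other models have, grey verticals mark the edges of separate exon blocks, and colour gives the assembly. Models of the first and the second assembly overlap in every receptor and coincide in none.

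Although no whole model was shared, every receptor shared splice junctions between the assemblies. The 15 models held 34 distinct junctions, of which 17 (50%) were in both assemblies, 13 in the first only and 4 in the second only. A junction in both assemblies was found for 5 of 5 receptors and for 90.0% of the 9142 spliced named genes with models in both. Over these genes 57.4% of 91703 junctions were in both, and over the 5737 of them without a shared model 48.5% were. The exons of the receptors covered 9765 bp together, 7852 bp in the first assembly and 5630 bp in the second, with 3717 bp (38.1%) in both.

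**Figure D2:**
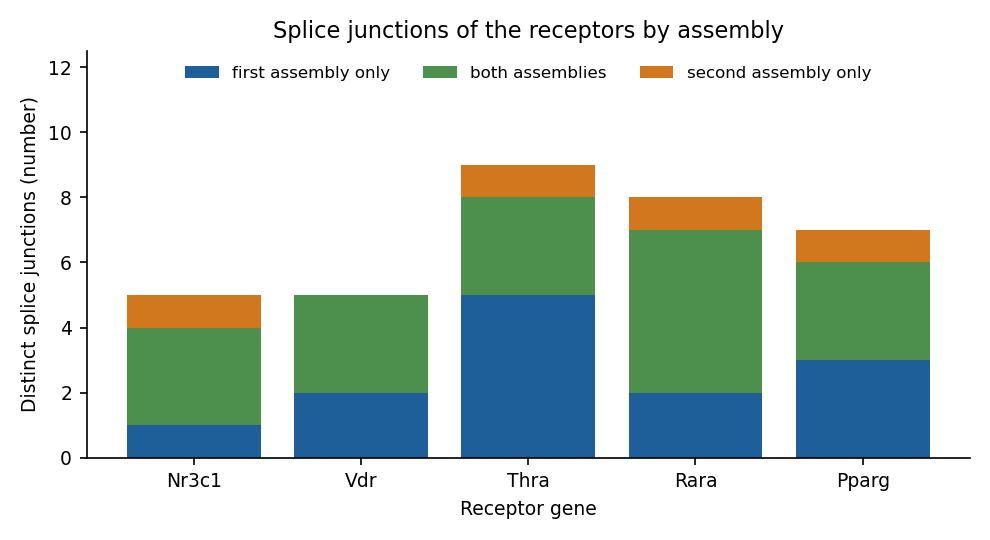
Number of distinct splice junctions of each receptor that were in the first assembly only, in both, or in the second only. Rara had 5 junctions in both assemblies and each other receptor had 3. Vdr had none in the second assembly alone.

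Nr3c1, the receptor of corticosterone, was assembled at XLOC_015199 on the minus strand of the sequence of chromosome 18, between 30918671 and 30995784. Positions are those of the deposited annotation. The submitters' processing notes name the rat build rn4, but the annotation uses other sequence names, so that the build of the positions was not established. The first assembly had a class c model of 5 exons and 803 bp, and the second had a class j model of 5 exons and 1846 bp. Both were compared with the same reference transcript and shared 3 junctions, across introns of 65591, 4089 and 2339 bp. The models differed at both ends. On the 5′ side, the first exon of the class c model had 150 bp, whereas the class j model had an exon of 1254 bp with the same inner edge, which was joined to a further 5′ exon of 61 bp across an intron of 2201 bp. This junction was absent from the contained model. At the 3′ side only the class c model went on to an exon of 96 bp. Of 1968 bp of exon sequence, 681 bp (34.6%) were in both assemblies.

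Vdr, through which vitamin D acts on osteoblasts and gut, was assembled at XLOC_008152 on the minus strand of the sequence of chromosome 7, between 125479038 and 125491731. The class c model of the first assembly had 6 exons and 1685 bp, including a last exon of 1023 bp. The class j model of the second assembly had 4 exons and 690 bp. All 3 junctions of the class j model were also in the contained model, so that its class rested on no junction of its own among the assembled models. The models differed at both ends. The first exon had 331 bp in the class j model and 112 bp in the contained model, a difference of 219 bp on the 5′ side. On the 3′ side the class j model ended within the fourth exon, after 78 of 152 bp, and lacked the last 2 junctions of the contained model. The assemblies shared 471 of 1904 bp (24.7%), the lowest share of the 5 receptors.

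Thra, the thyroid hormone receptor that prevails in bone, was assembled at XLOC_010321 on the plus strand of the sequence of chromosome 10, between 82449990 and 82476836. It was the receptor with the most complete model. A class = model of the first assembly had 9 exons and 2226 bp, ending in an exon of 829 bp. A class j model of the same assembly had 5 exons and 871 bp and began at the same base. All of its junctions were in the class = model, and its last exon had 234 bp where the class = model had 148 bp before its next intron, so that it ran 86 bp into an intron of 744 bp.

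The second assembly had only 2 contained fragments of Thra, each of 3 exons, with 447 and 445 bp. The more 3′ of these carried the difference of interest. It shared the junction across an intron of 485 bp with the class = model, but left the terminal exon after 128 of its 829 bp and was joined, across an intron of 3683 bp, to an exon of 62 bp at 82476775 to 82476836. That junction was in the second assembly only. The fragment was compared with another reference transcript than the class = model, and by its class its junctions are those of that reference. The 62 bp exon lay wholly, base for base, opposite the terminal exon of Nr1d1, a heme-binding repressor of the circadian clock (82476556 to 82477037, minus strand). Nr1d1 had 1 model, of class =, with 8 exons and 2638 bp, in both assemblies. It is textbook knowledge that Thra has alternative 3′ ends, a hormone-binding form and a longer form without hormone binding that overlaps Nr1d1 on the opposite strand. The files do not name isoforms, and the models were not assigned to these forms. Thra shared 3 of 9 junctions between the assemblies (33.3%), the lowest share of the 5 receptors.

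RefSeq gives Thra a pair of start sites 11817 bp apart in the build GRCr8. Their promoter windows are shown because both models of the first assembly began at 1 common base while the gene has alternative starts, and because the windows differ in composition. Each window runs from 250 bases before to 50 after the start. Start 1 is at chr10:84197891-84198190 and start 2 at chr10:84209708-84210007, both on the plus strand, written 5′ to 3′. Capitals mark GGGCGG, the GC box, on either strand.
Thra start 1: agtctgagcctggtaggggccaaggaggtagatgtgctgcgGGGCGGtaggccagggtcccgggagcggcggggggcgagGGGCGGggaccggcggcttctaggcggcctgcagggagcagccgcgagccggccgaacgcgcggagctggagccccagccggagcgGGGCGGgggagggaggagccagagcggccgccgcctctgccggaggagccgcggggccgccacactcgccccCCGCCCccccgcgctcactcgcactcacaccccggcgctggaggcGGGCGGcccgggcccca
Thra start 2: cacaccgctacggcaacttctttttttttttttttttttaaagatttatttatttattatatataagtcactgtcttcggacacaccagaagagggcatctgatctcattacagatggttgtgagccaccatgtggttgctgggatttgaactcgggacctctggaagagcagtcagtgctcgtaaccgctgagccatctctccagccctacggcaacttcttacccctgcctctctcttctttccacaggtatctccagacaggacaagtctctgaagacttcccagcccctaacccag
The window of start 1 had 79.7% G and C and 5 GC boxes, and that of start 2 had 46.3% and no such match. The assembled models from the common start had a first exon of 113 bp and then an intron of 11685 bp. These lengths stand beside the 11817 bp between the RefSeq starts, so start 2 may lie near the assembled second exon. That was not tested, and neither window was assigned to the assembled start, since no genome of the annotation's build was used here.

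Rara, the receptor of all-trans retinoic acid, was assembled at XLOC_010326 on the plus strand of the same sequence, between 82647144 and 82669463. It lay 170307 bp from Thra, with 5 named genes between them. The first assembly had a class n model of 8 exons and 1892 bp, and the second a class c model of 7 exons and 1264 bp. They were compared with different reference transcripts. Rara shared more junctions between the assemblies than any other of the receptors, 5 of 8 (62.5%). The models began with different first exons, of 282 bp in the first assembly and 331 bp in the second, whose starts were 9636 bp apart and which were both joined to the same exon of 149 bp, across introns of 14899 and 5214 bp. Only the class n model reached the last exon, of 617 bp. Its class names a retained intron, and the intron could not be located because the reference transcript was not used here.

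Pparg was assembled at XLOC_004735 on the plus strand of the sequence of chromosome 4, between 137316951 and 137440126. It had the most models of the receptors, 5, and all were contained fragments, compared with 3 different reference transcripts. Its longest model had 722 bp, the shortest among the receptors. The first assembly had fragments of 396, 404 and 722 bp and the second had fragments of 473 and 465 bp. In both assemblies the models fell into a 5′ and a 3′ set, and no model covered the 10422 bp from 137402984 to 137413405 between them, so that no assembled model joined the ends of the gene.

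The 5′ fragments of Pparg showed alternative first exons. In the first assembly an exon of 34 bp and another of 42 bp were each joined to the same exon of 67 bp, across introns of 21238 and 20207 bp. The fragment of the second assembly began inside that exon, with 45 bp of it. In all 3 models of the 5′ set this exon was joined directly to an exon of 228 bp across an intron of 55790 bp. No Pparg model began inside that intron. As background, the Pparg gene is read from alternative promoters, and the form that marks fat cells starts at a downstream promoter with a first exon of its own. The files do not name these forms.

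RefSeq lists a pair of Pparg starts 57714 bp apart in GRCr8. Both windows are shown because the assembled first exons concern the choice of start. Those exons began at 137316951 and 137317974, and the intron in which no model began lay between 137338289 and 137394080. Whether start 2 lies in that intron was not tested, and neither window was assigned to an assembled exon. Start 1 is at chr4:150096808-150097107 and start 2 at chr4:150154522-150154821, on the plus strand, 5′ to 3′, with GGGCGG and TATAAA in capitals on either strand.
Pparg start 1: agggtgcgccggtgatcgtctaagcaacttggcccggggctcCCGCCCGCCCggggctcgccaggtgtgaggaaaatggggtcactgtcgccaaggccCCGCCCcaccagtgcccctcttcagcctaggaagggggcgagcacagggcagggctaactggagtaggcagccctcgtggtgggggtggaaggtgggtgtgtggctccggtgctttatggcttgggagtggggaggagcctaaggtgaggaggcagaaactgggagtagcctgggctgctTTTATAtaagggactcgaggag
Pparg start 2: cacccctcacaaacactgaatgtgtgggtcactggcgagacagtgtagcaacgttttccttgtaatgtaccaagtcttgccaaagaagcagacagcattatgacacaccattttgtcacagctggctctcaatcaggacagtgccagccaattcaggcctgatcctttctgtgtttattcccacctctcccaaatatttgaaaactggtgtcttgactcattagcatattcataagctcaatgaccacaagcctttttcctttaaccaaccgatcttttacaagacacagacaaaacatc
The window of start 1 had 64.7% G and C, 3 GC boxes, of which 2 overlap, and 1 match to TATAAA, on the minus strand and after the start. The window of start 2 had 43.7% and neither match. A match is a run of letters and was not tested as a binding site.

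All 9 receptors matched a RefSeq promoter, with 12 windows of 300 bases, because Nr3c1, Thra and Pparg have 2 each. The windows of Nr3c1, not shown, had the opposite order to those of Thra and Pparg. Start 1 of Nr3c1 had 66.0% G and C and 1 GC box, and start 2 had 79.0% and 4. The receptor windows were rich in G and C, with a median of 64.5% against 51.7% over 33469 windows, and 7 of the 12 lay above the upper quartile of 60.3%. GGGCGG occurred in 8 of 12 receptor windows and in 33.1% of all windows, and TATAAA in 2 of 12 and in 14.2%. AGGTCA, the half-site to which many nuclear receptors bind, occurred in 0 of 12 and in 16.2% of all windows. Both strands were searched for each motif. The receptors not found by name had 59.7% (Esr1), 54.7% (Esr2), 47.7% (Pgr) and 72.0% (Esrra), within the range of those found. The window of Esr1, the main estrogen receptor and thus the receptor closest to the operation, is given for comparison (chr1:43641845-43642144, plus strand, GRCr8) and held none of the 3 motifs.
Esr1: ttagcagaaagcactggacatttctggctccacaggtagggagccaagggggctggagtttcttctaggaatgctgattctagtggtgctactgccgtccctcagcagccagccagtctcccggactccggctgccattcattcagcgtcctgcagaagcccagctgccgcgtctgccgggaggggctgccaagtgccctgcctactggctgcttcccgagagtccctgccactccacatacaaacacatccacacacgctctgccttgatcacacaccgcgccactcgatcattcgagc

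**Figure D3:**
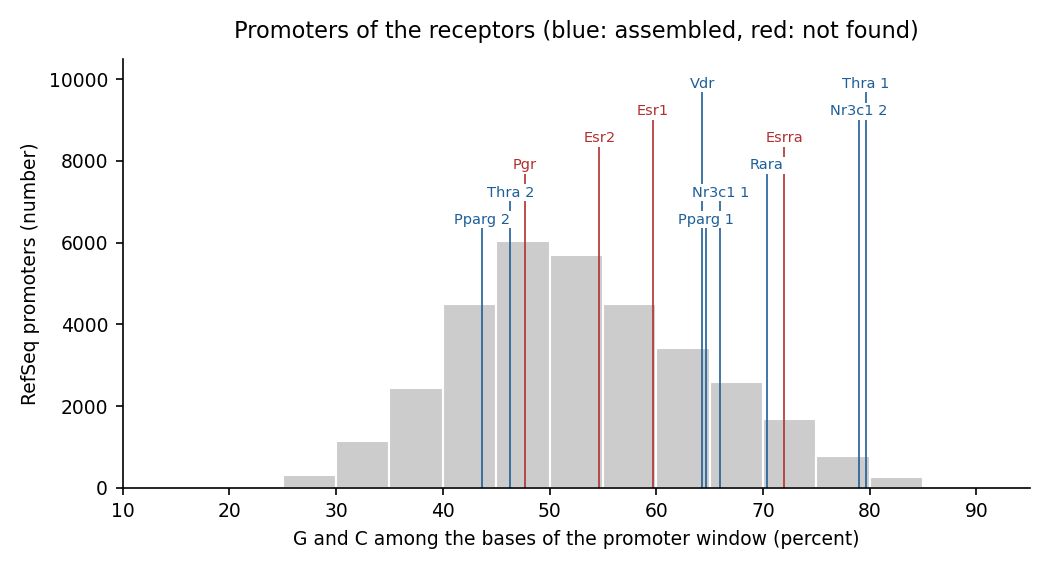
Share of G and C in the 300-base RefSeq promoter windows of the 9 receptors (vertical lines, blue for receptors with assembled models and red for those not found) over the distribution of 33469 windows (grey bars, number of promoters in steps of 5 percent). Windows of genes with 2 starts are numbered. Thra 1 is at 79.7% and Pparg 2 at 43.7%, the ends of the receptors' range.

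The receptors of the ovarian hormones themselves, Esr1, Esr2 and Pgr, and the orphan receptor Esrra, had no model by symbol and none under an older symbol. No opposite-strand model was compared with them either. Why no model carries these names was not tested, and the absence of a model was not read as an absence of expression. The chaperones Hsp90aa1, Hsp90ab1 and Hspa8, which practically every cell makes in quantity, were not found by name or older name in the same annotation (named after their values were seen). Of the 12567 gene names, 4989 equalled neither a current symbol nor an older symbol of 1 gene alone, so that a receptor can be present under another name. In a whole femur, moreover, a receptor carried by few cells and one made at a low level in many cells cannot be told apart.

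Nr3c2, the steroid receptor that binds aldosterone, was found with short models. It had 2 models, of class c and class j, the longer with 415 bp, and 1 of them was in both assemblies. Esrrg was the only estrogen-related receptor found, with 1 contained model of 203 bp in the first assembly. Nr3c2 and Esrrg were chosen after their values were seen.

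The retinoid X receptors, with which Vdr, Thra, Rara and Pparg pair, differed among themselves. Rxra had 1 model, a full reference chain of 10 exons and 2804 bp that was in both assemblies. Rxrg had 3 models, 2 of class c and 1 of class j, all in the first assembly, the longest with 371 bp. Rxrb was not found by name. Rxra was thus assembled as a whole and alike in both assemblies, whereas none of the receptors that pair with it and were looked for had a shared model.

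Of 49 nuclear receptors of the rat, 21 were found by name, and of the 40 that were not among those looked for, 16 were. Of these 16 other receptors, 11 had models in both assemblies, 5 had a shared model, and 8 had a full reference chain, beside 76.5%, 30.8% and 38.6% of all named genes. They had 36 of 71 junctions in both assemblies (50.7%), with the genes of 1 assembly included, against 53.7% of the junctions of all named genes. The other receptors with the most models were Nr1h3 with 5 and Nr4a1, Ppard and Nr1h2 with 4 each. Nr1h3 and Nr1h2 are oxysterol receptors, Ppard is a fatty acid receptor and Nr4a1 is an immediate early gene.

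**Figure D4:**
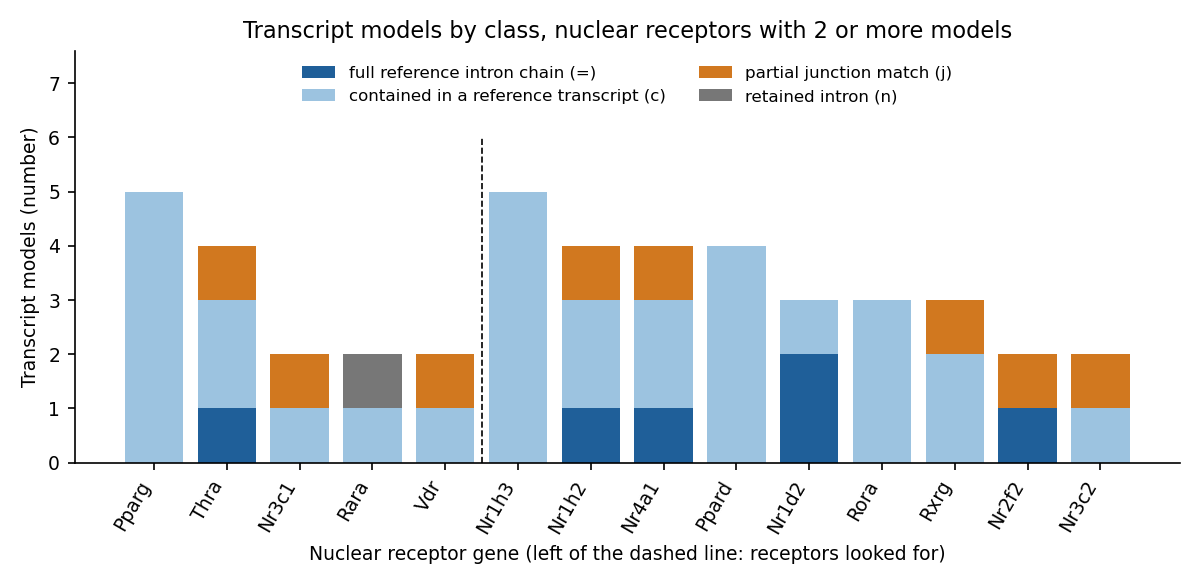
Number of transcript models of each class for the 14 nuclear receptors found by name that had 2 or more models, with the 5 receptors looked for left of the dashed line. Pparg and Nr1h3 have 5 contained fragments each, and the only class n model is that of Rara.

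By the number of models in each class, the receptor most like Pparg was Nr1h3, with the same 5 contained fragments (summed difference 0). It also had 3 models in the first assembly, 2 in the second and 3 junctions in both. Nr3c1, Vdr and Nr3c2 had the same classes (difference 0), and of these Nr3c1 and Vdr were closest to each other in the length of the longest model. Thra had the same classes as Nr4a1 and Nr1h2 (difference 0), each with 1 full chain, 1 class j model and 2 fragments. Nr4a1 was closer to Thra in length and had no shared model, whereas Nr1h2 had 2. The comparison runs over classes of models and not over samples.

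Coactivators and corepressors, which carry the receptors' signal to chromatin, were found for 13 of 22 genes, and 10 of these had class j models, which 42.3% of all named genes had. This list and those that follow were matched by name, as 25.4% of protein-coding symbols were. The corepressor Ncor1 had 10 models, 7 of class j and 1 a full chain of the reference, with up to 48 exons and up to 9974 bp, and 41 of its 55 junctions were in both assemblies. The coactivators Ncoa3 and Ncoa1 had 10 and 8 models, 7 of class c in each. A model was shared for 2 of 13 genes, and 69.3% of junctions were in both assemblies, against 30.8% of all named genes with a shared model and 53.7% of the junctions of all named genes.

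The chaperones that hold steroid receptors ready for hormone were found for 7 of 14 genes. All 7 had a full reference chain and models in both assemblies, and 5 had a shared model, against 38.6%, 76.5% and 30.8% of all named genes. Hspa4 had 7 models, 3 of them shared. Stip1, the adaptor between heat shock proteins, had 2 models, both full chains and both shared. Bag1 had 3 models and Dnaja1 had 2, each with 1 full chain and none shared.

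Enzymes and carriers of steroids, retinoids, thyroid hormone and vitamin D were found for 11 of 32 genes, of which 3 had a full chain and 0 a shared model (38.6% and 30.8% of all named genes). Hsd17b4, a peroxisomal enzyme that can inactivate estradiol, had 5 models and 15 of 22 junctions in both assemblies. Steroid sulfatase (Sts), the retinol carrier Rbp4 and Hsd17b12 had 3 models each. Cyp19a1, the aromatase that makes estrogen, and Cyp24a1, which degrades vitamin D, were not found by name (named after their values were seen).

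Receptor target genes were found for 14 of 26 genes, with a full chain for 10 and a shared model for 9, beside the same 38.6% and 30.8%. Tsc22d3, induced by glucocorticoids, had 2 full chains, both shared. Tgm2 and Dhrs3, induced by retinoic acid, had 3 models each, with 1 full chain. Igf1 had 1 full chain of 4460 bp, in 1 assembly, and 1 fragment.

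**Figure D5:**
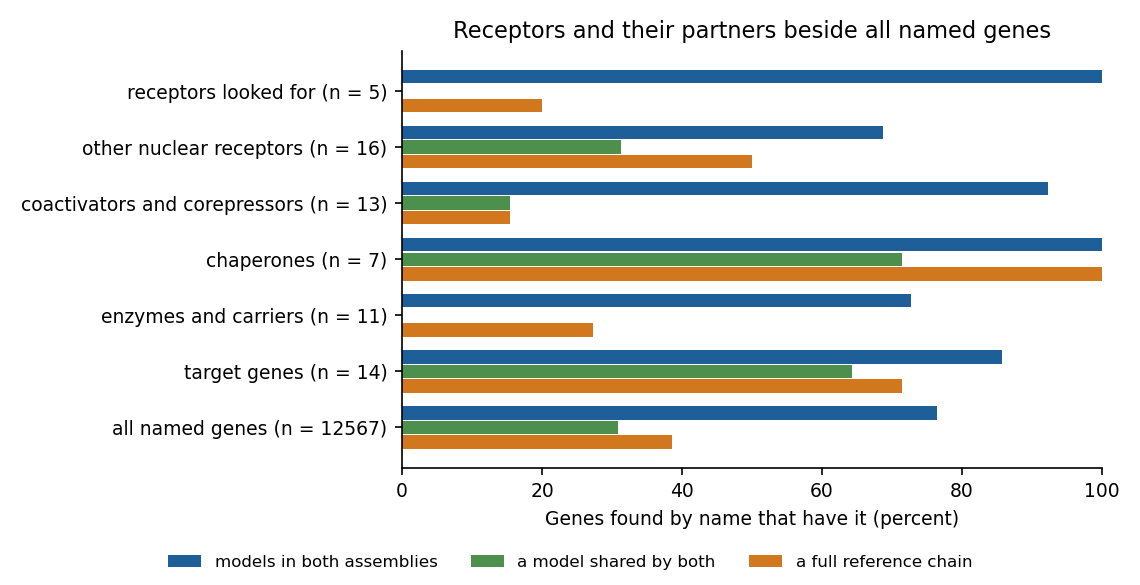
Percent of the genes found by name that had models in both assemblies (blue), a model shared by both (green) and a full reference chain (orange), for the receptors looked for, the other nuclear receptors, 4 lists of partner genes and all named genes, with the number of genes found in brackets. The receptors looked for stand at 100%, 0% and 20%, and all named genes at 76.5%, 30.8% and 38.6%.

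The labelled tissue was checked by marker genes. Of 13 osteoblast and osteocyte markers, 11 were found, 8 of them with a full reference chain, among them Col1a1, Alpl, Spp1, Dmp1 and Sost. Col1a2, Runx2 and Phex were found without a full chain. The shares to set beside all marker counts are 25.4% of protein-coding symbols found by name and 38.6% of named genes with a full chain. Mepe was not found. Osteoclast markers were found for 3 of 8 genes (Acp5, Ctsk and Mmp9) and marrow blood cell markers for 6 of 9. Adipocyte markers other than Pparg were found for 2 of 6 (Adipoq and Lpl) and skeletal muscle markers for 4 of 8. Of the markers found, a full chain was present for 3 of 3 osteoclast, 4 of 6 marrow blood cell, 2 of 2 adipocyte and 4 of 4 muscle genes. Under an older symbol 1 further gene was found in each of 3 of these lists, Bglap for osteoblasts, Tnfrsf11a for osteoclasts and Plin1 for adipocytes. Of 6 markers of ovary or liver 0 were found, a count from which little can be read when 25.4% of symbols are found. The files give no level by which the receptors' models could be divided among cell types.

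Besides the Nr1d1 model opposite Thra, models of class x were present at Nr3c1 and Rara. At Nr3c1, a class x model, which overlaps reference exons from the other strand, had 1 exon of 502 bp (XLOC_015016, 30992646 to 30993147, plus strand) and was in the first assembly. It lay wholly opposite the exon of 1254 bp, which was in the second assembly only. At Rara, a class x model of 1 exon and 625 bp (XLOC_011031, 82668863 to 82669487, minus strand) was in the second assembly, and 601 bp of it lay opposite the last exon of 617 bp, which was in the first assembly only. Neither overlapped a receptor exon of its own assembly. Whether the library kept the strand of the RNA is not given in the sources used here, so that without it sense and antisense models cannot be told apart.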

How the data were processed

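RNA from femurs of 1 OVX and 1 SHAM rat was described by the labels, and the files cover the whole series. The authors deposited an annotation of transcript models (positions and attributes) and a list of new genes, neither with a level. Per the labels' processing notes, FastQC, HISAT2, StringTie and featureCounts were used with the build rn4, without versions or roles, and the attributes are laid out as gffcompare lays them out. Depth is unknown.

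Models of genes on the new-gene list were left out of the named genes. On each of the 21 sequences the model numbers ran through the plus and the minus strand and then again, in 4 runs, and the first and last pairs of runs were taken as the first and the second assembly. All models recorded in both lay in the first pair, and no rat or group was assigned. Sequences were named by the chromosome of most of their genes with a current RefSeq symbol. A junction is the pair of exon ends that an intron joins. Junction, exon and length measures were computed with Python 3.11.15, after the reader was tested on simulated models, and figures were drawn with matplotlib 3.10.9. Promoter sequences are RefSeq's, of build GRCr8. The named genes are the 9 receptors, the retinoid X receptors, the 4 genes with the most models of each list, and, for each receptor found, the nuclear receptor with the smallest summed difference in models per class. Some genes that this rule names are not reported here. Members and lists were chosen with earlier results of these data known, and the motifs were chosen after seeing the models. No test was made, since nothing was measured per sample.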

Additional observations from a re-analysis of the deposited data

How the results depend on the processing

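Of 19 alternatives, 5 were filters on exon number, length or class that no receptor model fails, so they say nothing about stability. Another 5 left out 1 receptor each. Of the other 9, 4 left the value within 1.5 times the original and 5 did not. The count of receptors found stayed at 5 with older symbols. The count in both assemblies, 5, became 0 when a shared model was required, and it was 5 with a shared junction in place of a shared model, a setting that was chosen after seeing the data. The count with a full chain, 1, and the count with a class j model, 3, each became 0 when presence in both assemblies was required. The count with class j became 1 when a junction absent from full and contained models of the gene was required, also chosen after seeing the data. The median number of models per receptor, 2, became 1 without contained fragments, by the construction of that filter. The median longest model was 1968 bp as a union of exons. With only classes = and j it was 1846 bp over the 3 receptors that have them. The share of junctions in both assemblies was 46.2% to 56.0% when each receptor in turn was left out, chosen after seeing the data. Junctions of 1 gene are not independent. The comparison of model length with coding length was not run, because no protein table was used here. With 1 sample in each group there was no replicate to leave out. No paired analysis was possible because nothing was measured for each rat separately. Since the depth is unknown, a model that is missing may have been below it.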

Other observations

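Class j models without a junction of their own were unusual in the annotation. Among 8325 class j models of named genes that also had class = or class c models, 699 (8.40%) had all their junctions in those models. Among the receptors this held for 2 of 3, those of Vdr and Thra, and not for that of Nr3c1. The measure was chosen after the receptors' models had been seen.

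A class x model opposite exons of the other assembly alone was seen at Nr3c1 and Rara. Of 661 class x models in 1 assembly, 226 (34.2%) overlapped opposite-strand exons of named genes that were in the other assembly only, 96 (14.5%) overlapped such exons of their own assembly, and 339 (51.3%) overlapped none of either. Among the 322 that overlapped any, as both receptor models did, 70.2% overlapped exons of the other assembly only.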
